A study of Homo sapiens with 63 samples.

Results

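The step between the high and the low dose of Helicon 4 after 24 h was examined, to see which genes still responded between these doses and which had already reached their level at the low dose. The members are the 6 libraries whose labels give Helicon 4 and 24 h with 10 µM (3 libraries) or with 1 µM (3 libraries), of 63 libraries in the series, and every gene measured in them. The series holds RNA-seq of COLO320DM, an established human colorectal adenocarcinoma line with a high MYC level, kept in RPMI medium with 4% FBS and exposed for 6, 24 or 48 h to Helicon 4, to Helicon 4-neg or to DMSO. Helicon 4 is a helical peptide directed at the contact between β-catenin and TCF factors, Helicon 4-neg is its companion peptide, and DMSO is the solvent control. The structural difference between the peptides is not given in the sources used here. The groups used below, all at 24 h unless a time is given and all in the same line and medium, are Helicon 4 at 10 µM, at 3 µM and at 1 µM, Helicon 4-neg at 10 µM and at 1 µM, and DMSO, with 3 libraries each. The 3 libraries of Helicon 4-neg at 3 µM were not compared, but they entered the main fit, its estimate of the spread and the principal components. The labels number biological replicates without saying that they were separate cultures, so a p-value here speaks of the spread among these libraries alone.

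In the canonical Wnt pathway, β-catenin escapes a destruction complex built on APC and AXIN proteins, enters the nucleus and binds TCF and LEF factors on DNA, where it turns on target genes. Many targets are themselves brakes on the pathway, such as AXIN2, NKD1, NOTUM, RNF43 and WIF1, so their transcripts are widely read as a gauge of β-catenin output. In the intestine the pathway maintains stem and progenitor cells and drives proliferation, in part through MYC, and colorectal tumours commonly carry changes that keep it switched on.

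The 6 libraries held 16941232 to 25421775 reads in the listed genes, and 1 read was worth 0.0391 to 0.0581 CPM (reads per 1e6 reads on the rescaled library size), the unit of all levels below. CDX2, the intestinal homeobox factor, had 2234, 2306 and 2291 CPM at 10 µM, against 2960, 2945 and 2970 CPM at 1 µM, and the epithelial keratin KRT8 had 263, 256 and 260 CPM against 168, 166 and 172 CPM. EPCAM, an epithelial surface marker, was low, at 1.91, 2.09 and 1.90 CPM at 10 µM and 3.48, 1.58 and 1.62 CPM at 1 µM. CDH1, another epithelial marker, had means of 0.031 CPM at 10 µM and 0.488 CPM at 1 µM. The libraries therefore carried the intestinal factor strongly, and EPCAM and CDH1 weakly. Levels of GPA33, a colon surface antigen, are given below.

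One technical pattern crossed the groups and touches some results. In the numbering of the titles, libraries can be read in runs of 8, and 3 sets of places within a run differed in RNA that does not follow the treatment. At 24 h, the fibroblast collagen COL1A2 was at 15.3 to 20.7 CPM in the 6 libraries at places 7 and 8, at no more than 0.0953 CPM at places 5 and 6, and at 0.337 to 1.41 CPM at places 1 to 4, where the secreted Wnt antagonist SFRP1 reached 3.41 to 6.17 CPM. At 10 µM, replicate 1 came from places 5 and 6 and replicates 2 and 3 from places 7 and 8. At 1 µM replicate 1 came from places 1 to 4 and replicates 2 and 3 from places 5 and 6. Every 3 µM library came from places 1 to 4, as did DMSO replicates 2 and 3, while DMSO replicate 1 came from places 7 and 8. The summed level of the fibroblast markers was 21.2 to 58.9 CPM at 10 µM, against 10.1 to 12.0 CPM at 1 µM. Counts are therefore also given with a term for the 3 sets in the fit and without the libraries at places 7 and 8. Leaving those out keeps only replicate 1 at 10 µM, against 3 libraries at 1 µM, so each such value below compares 1 library with 3; its test takes the spread from the other groups, assumes that the single library varies as they do, and loses calls more easily.

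**Figure D1:**
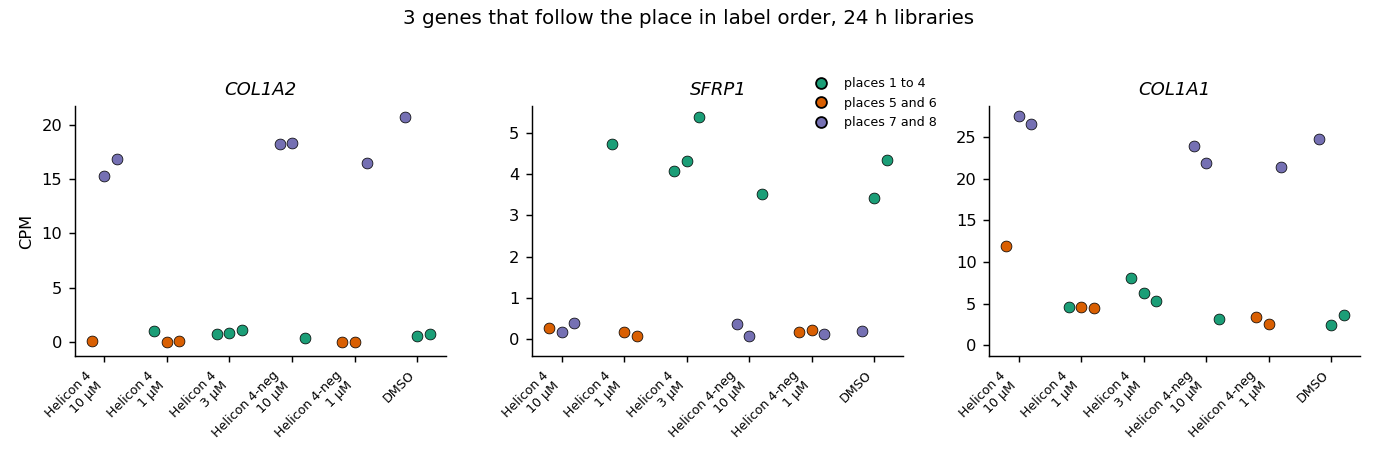
Levels in CPM (linear axes) of COL1A2, SFRP1 and COL1A1 in each 24 h library of 6 groups; points are single libraries, from replicate 1 on the left to replicate 3, and colours give the place in the run of 8. COL1A2 is above 15 CPM only at places 7 and 8 and SFRP1 above 3 CPM only at places 1 to 4, whatever the treatment.

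The transcriptome of 10 µM cells differed from that of 1 µM cells in both directions, with more genes lower than higher. Of 13213 genes tested, 4786 (36.2%) differed between 10 µM and 1 µM at an adjusted p under 0.05 by limma, here called; 2091 (15.8%) were higher and 2695 (20.4%) lower at 10 µM. The median log2 difference was 0.39 among the called higher genes and -0.29 among the called lower genes. A log2 difference of at least 1 was reached by 125 of the called higher genes and 33 of the called lower genes. With the term for library sets the counts were 1877 higher and 2517 lower, and without the libraries at places 7 and 8, with 1 library left at 10 µM, they were 1803 and 2428. In 5397 genes (40.8%) the 3 values at 10 µM lay beyond all 3 values at 1 µM. On the first principal component of the 24 h libraries, which held 51.9% of the variance, the 10 µM libraries lay between -33.6 and -33.1 and the 1 µM libraries between -3.4 and -2.7. As in any bulk sample, fewer cells of a type and less RNA per cell cannot be told apart.

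The Wnt feedback genes, a list made mainly of brakes on the pathway, mostly fell further at the high dose. Whether β-catenin turns on each member in these cells was not tested. Of 13 members tested, 9 were lower at 10 µM than at 1 µM (20.4% of all genes tested), 1 was higher and 3 were not called, and the median log2 difference was -0.64. WIF1, which encodes a secreted protein that traps Wnt ligands (chromosome 12, 65050626 to 65121566, minus strand, GRCh38), had 4.79, 4.24 and 4.46 CPM at 10 µM, against 23.2, 19.6 and 21.7 CPM at 1 µM. The groups lay far apart, with a log2 difference of -2.03 (SE 0.0946, adjusted p = 1.29e-12), the largest fall among the genes with a mean log2 level of at least 3. NOTUM, a secreted enzyme that strips the lipid from Wnt proteins, had 14.5, 12.1 and 12.5 CPM at 10 µM and 34.5, 35.9 and 34.8 CPM at 1 µM, a log2 difference of -1.37 (SE 0.0648, adjusted p = 1.7e-12). TNFRSF19, a TNF-receptor family member expressed in intestinal stem cells, had 12.2, 12.4 and 13.9 CPM at 10 µM and 33.2, 35.5 and 34.0 CPM at 1 µM (log2 difference -1.35). APCDD1, a membrane-bound Wnt inhibitor, fell to 99.6 ± 3.7 CPM at 10 µM, against 243 ± 8.6 CPM at 1 µM (SD, n = 3 each; log2 difference -1.28). In each of these 4 genes every 10 µM library lay below every 1 µM library.

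These genes differed in how much of their fall was already present at 1 µM. Between DMSO, 1 µM, 3 µM and 10 µM the mean level of WIF1 was 38.9, 21.5, 8.16 and 4.50 CPM, and that of NOTUM was 64.1, 35.1, 18.2 and 13.0 CPM. AXIN2, the scaffold of the destruction complex, fell over the lower doses, with means of 202, 113, 78.8 and 71.8 CPM, and its 10 µM libraries (78.6, 67.0 and 69.7 CPM) were below its 1 µM libraries (110, 114 and 114 CPM; log2 difference -0.65). NKD2, which binds Dishevelled, had means of 26.5, 10.1, 6.78 and 6.16 CPM (log2 difference between 10 µM and 1 µM -0.64). RNF43, a ubiquitin ligase that removes Frizzled receptors, followed another course: its mean was 83.2 CPM in DMSO, 80.0 CPM at 1 µM, 64.4 CPM at 3 µM and 45.6 CPM at 10 µM. Its 1 µM level did not differ detectably from DMSO (log2 difference -0.06, adjusted p = 0.53), while 10 µM was below 1 µM in every library (46.5, 44.6 and 45.7 CPM against 75.5, 83.9 and 80.7 CPM; log2 difference -0.80, adjusted p = 6.37e-10). Its relative ZNRF3 had 26.3, 21.6 and 22.1 CPM at 10 µM and 27.8, 28.5 and 27.8 CPM at 1 µM, a log2 difference of -0.26 (adjusted p = 0.007). It was -0.24 with the term for library sets (adjusted p = 0.0288) and -0.09 (adjusted p = 0.489) with replicate 1 as the single 10 µM library.

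NKD1 was one of the genes with no detectable further change between 1 µM and 10 µM. This intracellular Dishevelled antagonist (chromosome 16, 50548330 to 50649249, plus strand) had 11.9, 11.4 and 9.94 CPM at 10 µM and 10.7, 13.7 and 11.5 CPM at 1 µM, so the groups overlapped. Its log2 difference was -0.10 with a 95% interval of -0.29 to 0.10, while the DMSO libraries averaged 39.1 ± 0.82 CPM (SD, n = 3). DKK1, a secreted LRP-receptor antagonist, had 8.74, 6.74 and 6.45 CPM in DMSO and 0.977, 1.15 and 0.905 CPM at 1 µM. At 10 µM it had 0.418 CPM in replicate 1 and 2.62 and 2.30 CPM in replicates 2 and 3, which are the libraries at places 7 and 8. Its difference between 10 µM and 1 µM was not called (log2 difference 0.35, adjusted p = 0.261) and was -0.03 with the term for library sets (adjusted p = 0.926). With replicate 1 as the single 10 µM library it was -0.50 (adjusted p = 0.0432), so no direction is given for this gene. KREMEN1, a DKK receptor, was the member called higher, at 242, 205 and 218 CPM at 10 µM and 178, 199 and 188 CPM at 1 µM (log2 difference 0.23). SFRP1 followed the library sets, with 0.279, 0.174 and 0.398 CPM at 10 µM and 4.73, 0.171 and 0.0953 CPM at 1 µM, and was not called.

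**Figure D2:**
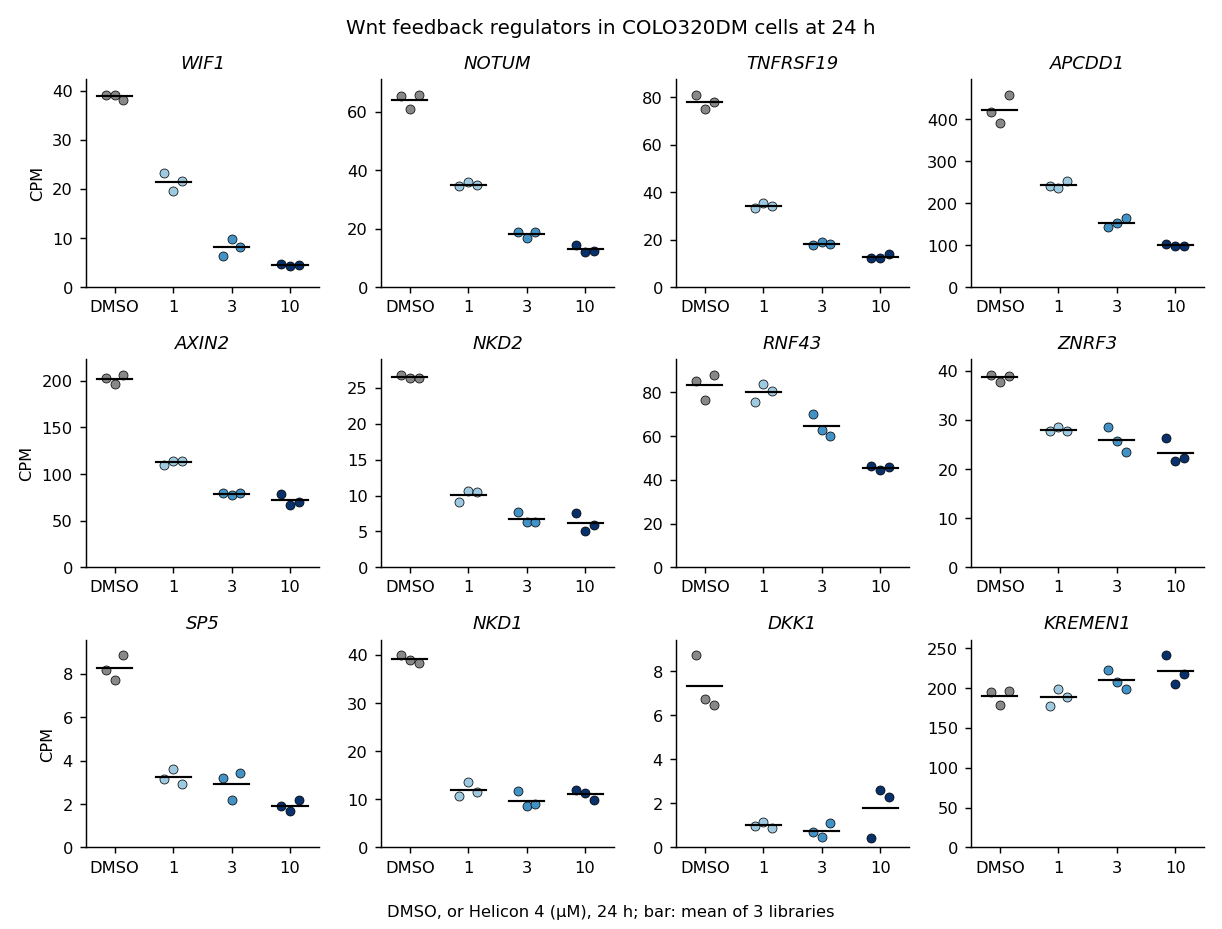
Levels in CPM (linear axes from 0) of 12 Wnt feedback regulators in DMSO and at 1, 3 and 10 µM Helicon 4, 24 h; points are single libraries and bars the mean of 3. WIF1, NOTUM, TNFRSF19 and APCDD1 step down at every dose, RNF43 is at its DMSO level at 1 µM, and NKD1 is flat between 1 and 10 µM.

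The promoters of SP5 and WIF1 are shown because both genes fell while their proximal promoters differ in TCF core letters. SP5 is a transcription factor gene and direct Wnt target. The sequences are RefSeq promoters of GRCh38.p14, from 250 bases before to 50 bases after the annotated start, at chr2:170715087-170715386 on the plus strand for SP5 and chr12:65121256-65121555 on the minus strand for WIF1. Capitals mark every match, on either strand, to the TCF core letters CTTTGAT or to its variants CTTTGTT and then CTTTGTA and also CTTTGAA.
SP5: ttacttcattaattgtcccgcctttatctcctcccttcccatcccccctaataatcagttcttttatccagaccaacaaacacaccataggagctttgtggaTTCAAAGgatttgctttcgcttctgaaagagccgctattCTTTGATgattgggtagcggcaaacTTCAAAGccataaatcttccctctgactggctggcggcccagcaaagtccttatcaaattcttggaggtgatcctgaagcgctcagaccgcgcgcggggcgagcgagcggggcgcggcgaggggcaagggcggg
WIF1: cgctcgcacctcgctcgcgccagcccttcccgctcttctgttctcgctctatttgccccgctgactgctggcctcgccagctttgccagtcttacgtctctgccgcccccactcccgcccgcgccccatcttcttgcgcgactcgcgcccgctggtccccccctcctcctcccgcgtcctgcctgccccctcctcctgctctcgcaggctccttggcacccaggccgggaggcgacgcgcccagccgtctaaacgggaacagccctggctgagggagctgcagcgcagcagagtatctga
SP5 held 3 such matches and WIF1 none. Of all 35116 promoters in the table, 13.8% held at least 1 match. Counted by gene, 12.5% of the 10045 tested genes with a promoter had a match in at least 1 promoter. Of the 14 listed feedback genes, 7 had a promoter in the table, and 2 of these, SP5 and DKK1, held a match. DKK1 was not called between 10 µM and 1 µM. SP5 was at 1.91, 1.69 and 2.17 CPM at 10 µM, against 3.17, 3.62 and 2.91 CPM at 1 µM (log2 difference -0.54, adjusted p = 0.00118). A match is only a match of letters in this window.

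Wider Wnt lists moved less uniformly. Of 44 Wnt target genes tested, which include feedback genes, 18 were lower and 10 higher at 10 µM (median log2 difference -0.11). Over all genes tested, 20.4% were lower and 15.8% higher. ASCL2, which encodes a regulator of the intestinal stem cell state, had 12.3, 12.4 and 10.3 CPM at 10 µM and 19.7, 20.2 and 21.8 CPM at 1 µM (log2 difference -0.77). CCND1, which encodes cyclin D1, had 18.0, 18.5 and 18.6 CPM at 10 µM and 19.7, 19.4 and 24.0 CPM at 1 µM, without a call (log2 difference -0.18, adjusted p = 0.0869; 0.0245 with the term for library sets). LGR5, a stem cell receptor, was at 4.65, 5.11 and 4.11 CPM at 10 µM and 4.42, 4.43 and 3.67 CPM at 1 µM, and these groups overlapped. MYC, which this line expresses very highly, had a mean of 3245 ± 227 CPM at 10 µM and 3288 ± 167 CPM at 1 µM (SD, n = 3 each), with a log2 difference of -0.02 and a 95% interval of -0.13 to 0.09. Among 30 pathway components 9 were higher and 4 lower. CTNNB1, which encodes β-catenin, was one of the higher ones, at 590, 578 and 601 CPM at 10 µM and 505, 516 and 496 CPM at 1 µM (log2 difference 0.22), and so was the receptor FZD2, at 49.4, 44.9 and 47.4 CPM against 33.2, 36.9 and 35.5 CPM. The receptor FZD8 was lower, at 13.2, 11.0 and 12.1 CPM at 10 µM and 19.0, 20.5 and 20.8 CPM at 1 µM. TCF7L2, a TCF factor gene, had 20.3, 9.47 and 12.0 CPM at 10 µM and 8.25, 9.72 and 9.62 CPM at 1 µM; its groups overlapped and its call as higher (log2 difference 0.49, adjusted p = 0.0483) was lost under 8 alternatives, 5 of which left out 1 library. The log2 difference was 0.20 (adjusted p = 0.354) without replicate 1 of 10 µM and between 0.42 and 0.55 in the other 4 of these.

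Of the 12 largest falls, 8 were in genes outside the Wnt feedback list. HDC, histidine decarboxylase, which makes histamine, had 16.8, 17.0 and 17.1 CPM at 10 µM, against 53.8, 55.0 and 56.1 CPM at 1 µM (log2 difference -1.64, SE 0.0476, adjusted p = 1.05e-15). Its DMSO mean was 153 CPM and its 3 µM mean 18.0 CPM, and no fall above 3 µM was detectable (log2 difference between 10 µM and 3 µM -0.08, adjusted p = 0.441). KRT39, a keratin gene, had 5.62, 4.65 and 4.77 CPM at 10 µM and 19.5, 18.0 and 17.1 CPM at 1 µM (log2 difference -1.68), although 1 µM did not differ detectably from the DMSO mean of 19.6 CPM (adjusted p = 0.368). MEP1B, which encodes the metalloprotease meprin β, had 20.9, 24.4 and 24.4 CPM at 10 µM and 74.7, 74.5 and 74.9 CPM at 1 µM. FARS2, a mitochondrial tRNA synthetase gene, had 62.9, 73.4 and 68.7 CPM at 10 µM and 207, 182 and 200 CPM at 1 µM. Thus KRT39, MEP1B and FARS2 lost most of their 1 µM level by 10 µM. HDC had lost most of its DMSO level by 1 µM and fell further by 3 µM. The receptor tyrosine kinase gene KIT had 5.30, 4.42 and 4.38 CPM at 10 µM and 13.2, 13.5 and 13.3 CPM at 1 µM. The remaining genes of the 12 largest falls were NRK, GC (vitamin D-binding protein) and KCTD12, with log2 differences of -1.27, -1.24 and -1.23.

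Among the 12 largest rises, that of CA10 was the largest. CA10, a carbonic anhydrase-related protein gene known from neurons (chromosome 17, 51630313 to 52160017, minus strand), had 39.4, 38.4 and 37.6 CPM at 10 µM, against 3.13, 2.94 and 3.38 CPM at 1 µM, a log2 difference of 3.25 (SE 0.147, adjusted p = 1.07e-12). Its DMSO libraries held 0.680, 1.97 and 1.65 CPM and its 3 µM libraries 11.9, 11.8 and 11.7 CPM, so each dose stood clear of the others. TP53INP2, an autophagy regulator, had 365, 210 and 251 CPM at 10 µM and 45.8, 62.5 and 54.3 CPM at 1 µM (log2 difference 2.30). SEMA3A, a secreted guidance cue, lay between 23.7 and 26.2 CPM at 10 µM and between 4.53 and 6.52 CPM at 1 µM (log2 difference 1.98). The 1 µM level of SEMA3A did not differ detectably from DMSO (adjusted p = 0.127), which places its rise above 1 µM. EDIL3, a secreted integrin ligand, was at 50.4, 53.6 and 51.2 CPM at 10 µM and 13.0, 15.5 and 13.9 CPM at 1 µM; TNMD, a membrane glycoprotein of tendon, was at 20.1, 20.9 and 19.9 CPM and 4.26, 4.65 and 5.05 CPM. CTNNA2, the neuronal α-catenin gene, and SPAG17, an axoneme gene of cilia, both had a log2 difference of 1.65.

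In 3 of the 12 largest rises the log2 difference was smaller by more than 1.5 times with the term for library sets. COL1A1, a fibroblast collagen, had 11.9, 27.5 and 26.6 CPM at 10 µM and 4.57, 4.60 and 4.48 CPM at 1 µM, and its log2 difference of 1.97 was 0.49 (adjusted p = 0.117) with the term for library sets and 1.22 (adjusted p = 0.000357) with replicate 1 as the single 10 µM library. FN1, fibronectin, had 42.1, 51.2 and 52.4 CPM at 10 µM and 14.3, 16.2 and 10.7 CPM at 1 µM, with a log2 difference of 1.76 that was 0.88 (adjusted p = 0.00925) with the term. LGALS1, which encodes a galectin, averaged 18.1 ± 4.1 CPM at 10 µM and 4.43 ± 1.5 CPM at 1 µM (SD, n = 3 each), with a log2 difference of 1.82 that was 0.97 (adjusted p = 0.00378) with the term. Fibroblast markers as a list had 4 of 7 tested members called higher (15.8% of all genes tested), and 1 of 7 with the term. Of the 3 libraries at 10 µM, 2 were at places 7 and 8. Within places 5 and 6 alone, replicate 1 of 10 µM was above replicates 2 and 3 of 1 µM, at 11.9 CPM against 4.60 and 4.48 CPM for COL1A1 and at 42.1 CPM against 16.2 and 10.7 CPM for FN1. The part of fibroblast RNA in the remaining difference was not tested.

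Genes chosen for a response at 3 µM, in libraries that the dose step does not share, were then read between 10 µM and 1 µM. A total of 5970 genes (45.2%) were called between 3 µM and DMSO, and 1461 of these with a log2 difference of at least 0.5 in size were taken as responders. Of 720 responders higher at 3 µM, 598 (83.1%) were also higher at 10 µM than at 1 µM, 2 were lower, 17 were level and 103 were undecided. Level means not called with a 95% interval inside -0.3 to 0.3 on the log2 scale, and undecided means a wider interval. Of 741 responders lower at 3 µM, 482 (65.1%) fell further, 2 were higher, 44 were level and 213 were undecided. Of the 11752 genes not chosen at 3 µM, 1491 were called higher and 2211 lower between 10 µM and 1 µM. Together, 1080 of the 1461 responders went further between the doses and 61 were level.

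**Figure D3:**
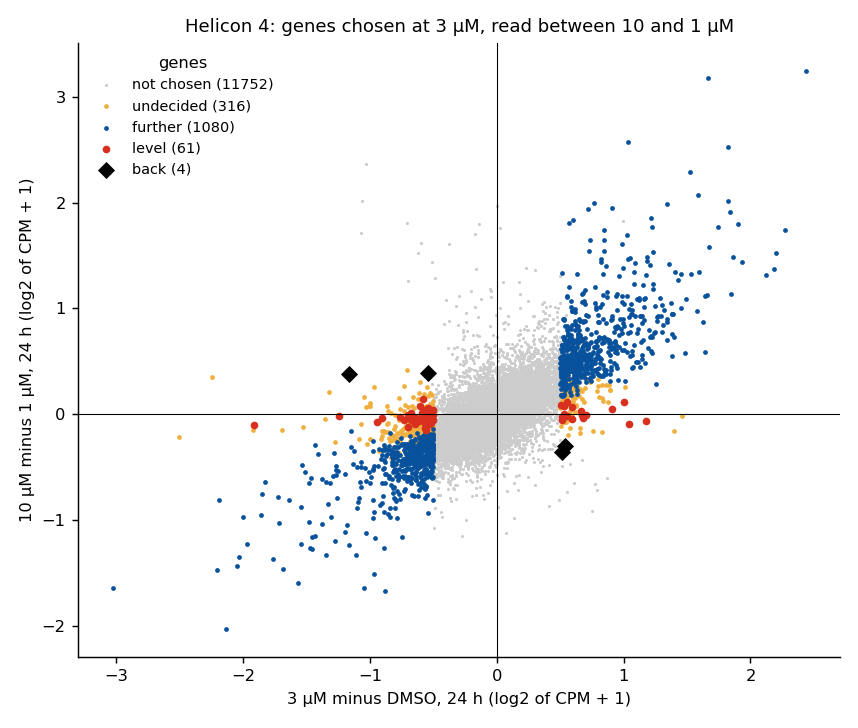
Each point is 1 of 13213 genes, with its log2 difference between 3 µM Helicon 4 and DMSO on the x axis and between 10 µM and 1 µM on the y axis (log2 of CPM + 1, 24 h); no library enters both axes. Colours give the class, with 1080 responders going further, 61 level, 4 moving back and 316 undecided.

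The level responders include receptors, transcription factors and transporters. Among those that rose, EPHA4, an ephrin receptor gene, had 19.3, 19.5 and 19.6 CPM at 10 µM and 20.9, 21.6 and 20.0 CPM at 1 µM, both above the DMSO values of 12.2, 11.8 and 13.6 CPM. Its level at 3 µM was higher than at 10 µM (29.2, 25.5 and 26.0 CPM; log2 difference between 10 µM and 3 µM -0.45, adjusted p = 0.00146), so the agreement of the end doses is not a flat course. ID3, an inhibitor of basic helix-loop-helix factors, had 76.7, 85.1 and 81.5 CPM at 10 µM and 76.3, 72.7 and 74.8 CPM at 1 µM, with a DMSO mean of 44.7 CPM. Its 95% interval was 0.01 to 0.23, and it was called when replicate 1 of 10 µM was left out. The homeobox gene HOXA13 (log2 difference -0.01), the bicarbonate transporter gene SLC4A8 (0.04), FAM110A (-0.01) and TRIM45 (0.03) were also level. Among those that fell, after NKD1, the amino acid transporter gene SLC7A8 had 50.4, 38.9 and 43.4 CPM at 10 µM and 42.2, 52.1 and 42.1 CPM at 1 µM, with a DMSO mean of 80.7 CPM. PGM2L1, the chromatin remodeller gene CHD1 and the glycosyltransferase gene GALNT10 had log2 differences between 10 µM and 1 µM of -0.03, -0.06 and -0.12. For each of these genes the difference between 10 µM and 1 µM was bounded within 0.3 on the log2 scale. The class did not require 1 µM to differ from DMSO or 3 µM to match the end doses. A level gene therefore need not have reached its full response at 1 µM.

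Only 4 responders moved back at the high dose. ABAT, which encodes the enzyme that breaks down GABA, had a mean of 98.7 CPM in DMSO, 39.0 CPM at 1 µM, 43.4 CPM at 3 µM and 51.0 CPM at 10 µM, and its 10 µM libraries (54.0, 48.2 and 50.8 CPM) were all above its 1 µM libraries (35.7, 42.6 and 38.7 CPM; log2 difference 0.38, adjusted p = 3.93e-05). PLK2, a kinase gene, had 42.2, 36.3 and 37.7 CPM at 10 µM and 48.7, 52.1 and 49.3 CPM at 1 µM, with means of 59.2 CPM at 3 µM and 41.1 CPM in DMSO (log2 difference -0.36). SPAG6 (0.39) and MXD3 (-0.30) were the other two. With the term for library sets SPAG6 had 0.41 (adjusted p = 0.028) and MXD3 -0.26 (adjusted p = 0.104). With replicate 1 as the single 10 µM library SPAG6 had 0.47 (adjusted p = 0.0536) and MXD3 -0.20 (adjusted p = 0.289).

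**Figure D4:**
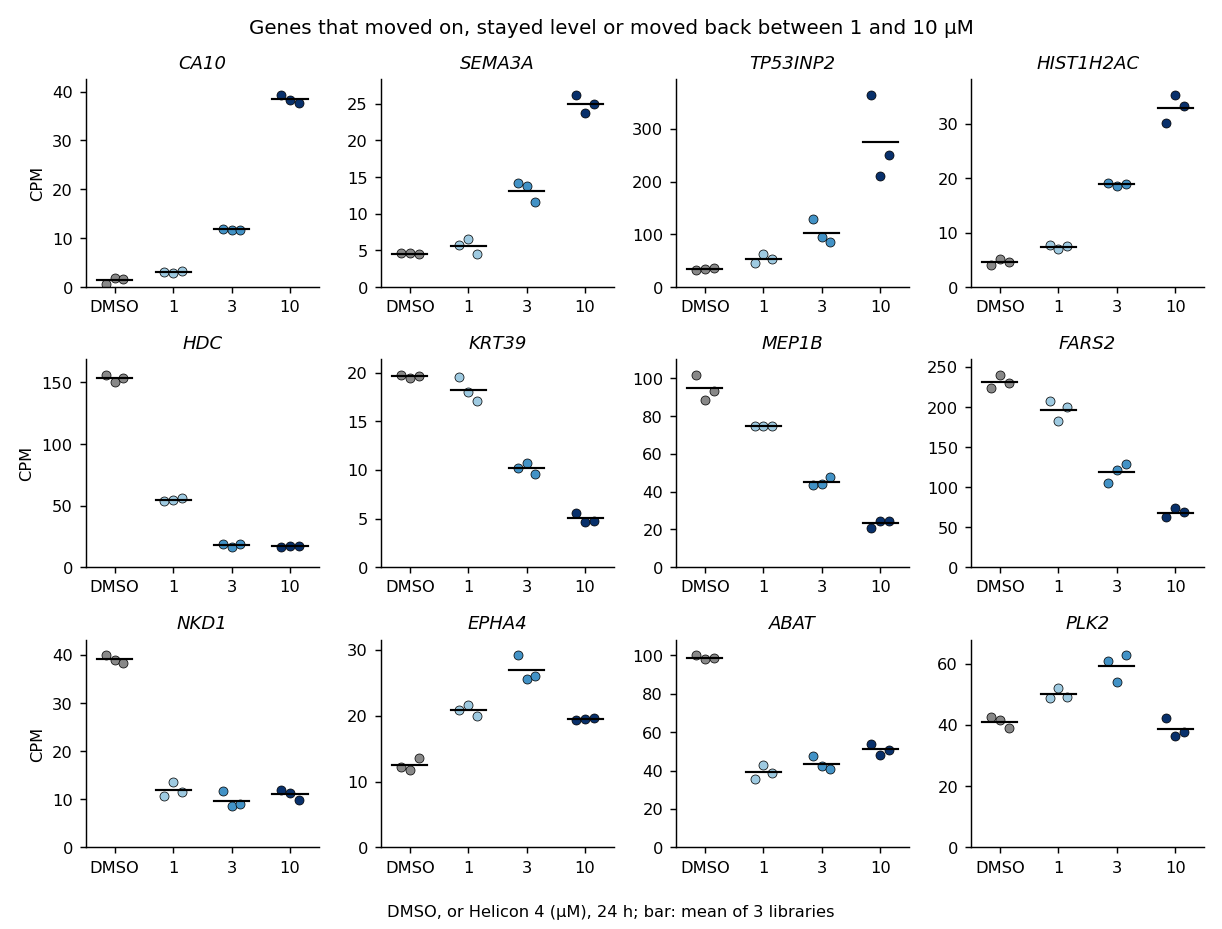
Levels in CPM (linear axes from 0) of 12 genes in DMSO and at 1, 3 and 10 µM Helicon 4, 24 h; points are single libraries and bars the mean of 3. CA10 to HIST1H2AC rise mainly above 1 µM, and HDC is at 3 µM close to its 10 µM level. KRT39, MEP1B and FARS2 fall mainly above 1 µM. NKD1 and EPHA4 are level between 1 and 10 µM, with EPHA4 higher at 3 µM, and ABAT and PLK2 turn back.

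Most called genes had an intermediate level at the middle dose. The 3 µM mean lay between the 1 µM and 10 µM means for 1913 of 2091 called higher genes (91.5%). It did so for 2412 of 2695 called lower genes (89.5%). These genes were chosen by the difference between the same 1 µM and 10 µM means, which favours a 3 µM mean between them. The share over all genes tested was not computed. This choice also bears on the percentages of the rise or fall that follow. Among called genes with a log2 difference of at least 0.5 in size, the median gene had covered 57.2% of the rise at 3 µM (quartiles 43.9 and 70.1%, 650 genes) or 60.2% of the fall (quartiles 47.0 and 69.7%, 304 genes). By count of calls, 2658 genes (20.1%) were called between 3 µM and 1 µM, 1017 higher (7.7%) and 1641 lower (12.4%). Between 10 µM and 3 µM 724 (5.48%) were called, 348 higher (2.63%) and 376 lower (2.85%), or 138 and 142 with the term for library sets. These 2 steps share the 3 µM libraries, which were all at places 1 to 4, where no 10 µM library was.

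Genes of proliferation fell as groups, beside shares over all genes tested of 20.4% lower and 15.8% higher between 10 µM and 1 µM. Of 40 S phase and replication genes tested, 40 were lower at 10 µM than at 1 µM, with a median log2 difference of -0.49. RRM2, a subunit of ribonucleotide reductase, had 127, 147 and 144 CPM at 10 µM and 240, 233 and 235 CPM at 1 µM (log2 difference -0.76), and MCM2, a subunit of the replicative helicase, had 356, 357 and 373 CPM and 516, 529 and 533 CPM. Of 38 MYC-responsive nucleolar and nucleotide genes, 35 were lower (median -0.32) while MYC itself was not called. PAICS, a purine synthesis enzyme, had 385, 355 and 354 CPM at 10 µM and 485, 505 and 499 CPM at 1 µM. Of 34 G2/M and mitosis genes 27 were lower (median -0.24). This last list had 14 higher and 3 lower members between 1 µM and DMSO, beside 8.59% higher and 10.3% lower over all genes tested. Its median log2 difference was then 0.10. The comparisons of 10 µM with 1 µM and of 1 µM with DMSO share the 1 µM libraries. CCNA2, cyclin A, had a mean of 181 CPM in DMSO, 203 CPM at 1 µM, 196 CPM at 3 µM and 157 CPM at 10 µM, and AURKA, a mitotic kinase, had 149, 168, 158 and 140 CPM. Between 10 µM and 3 µM 18 of the 34 G2/M genes were lower, beside 2.85% of all genes tested. Between 3 µM and 1 µM 5 of the 34 were lower, near the share of 12.4% over all genes tested.

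Antiproliferative and histone genes went the opposite way. Of 20 CDK inhibitor and antiproliferative genes, 12 were higher and 1 lower at 10 µM (median log2 difference 0.33). CCNG2, an atypical cyclin of quiescent cells, had 159, 154 and 158 CPM at 10 µM and 78.7, 75.5 and 83.0 CPM at 1 µM. BTG2, an antiproliferative gene, had 39.9, 41.6 and 40.2 CPM at 10 µM and 14.3, 15.4 and 14.6 CPM at 1 µM (log2 difference 1.40), and MXD4, an antagonist of MYC at MAX, had 354, 370 and 339 CPM and 194, 188 and 200 CPM. Of 14 histone genes found in polyadenylated RNA, 13 were higher (median 0.82). HIST1H2AC had 30.2, 35.4 and 33.3 CPM at 10 µM and 7.66, 6.99 and 7.53 CPM at 1 µM (log2 difference 2.02), and HIST2H2BE had 34.9, 35.6 and 36.1 CPM and 13.2, 11.9 and 12.9 CPM. Histone genes are near-identical copies, so reads may be divided among them. Apoptosis genes of the BCL2 family were split, with 5 higher and 2 lower of 17; BMF, a pro-death BH3-only gene, had 46.7, 41.3 and 45.9 CPM at 10 µM and 14.0, 17.2 and 13.6 CPM at 1 µM (log2 difference 1.52). Of 23 p53 targets 4 were higher and 3 lower. The shares over all genes tested were 15.8% higher and 20.4% lower.

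**Figure D5:**
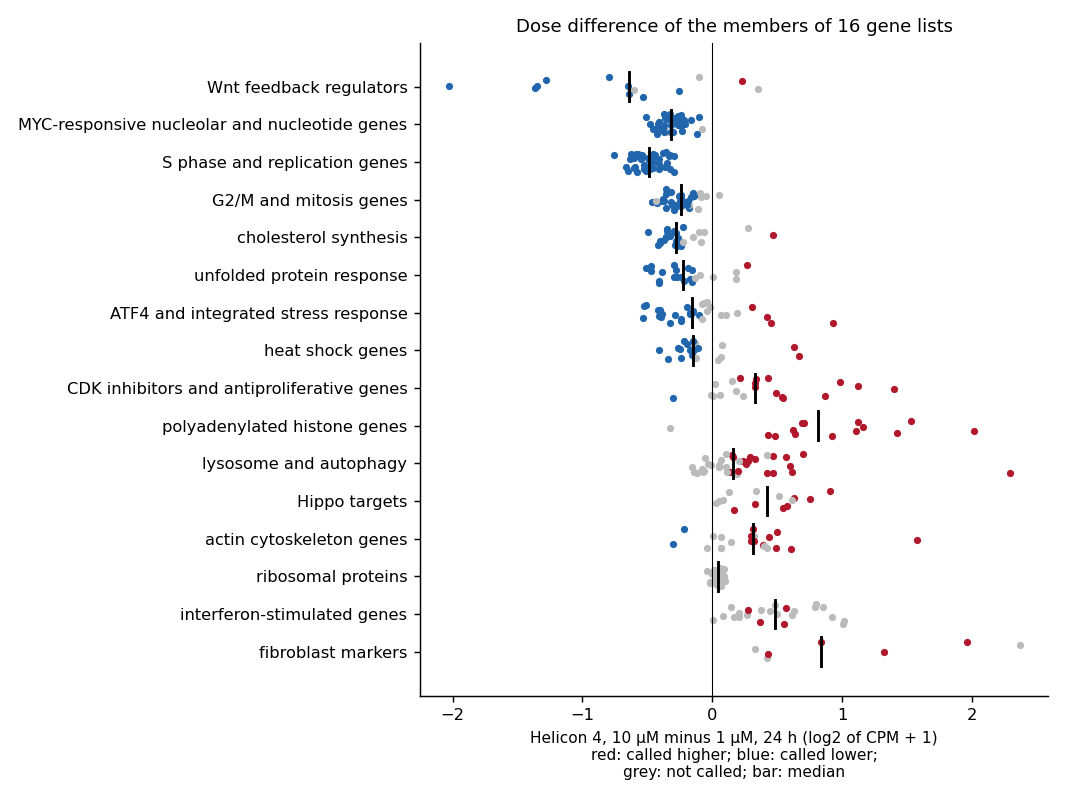
Log2 differences between 10 µM and 1 µM Helicon 4 at 24 h (log2 of CPM + 1) of the tested members of 16 gene lists; each point is a gene, red called higher, blue called lower, grey not called, and the bar is the list's median. All 40 S phase genes are to the left of 0 and called, 13 of 14 histone genes are to the right and called, and none of 30 ribosomal protein genes is called.

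Lysosome, cytoskeleton and Hippo genes rose in part. The counts below stand beside 15.8% higher and 20.4% lower over all genes tested. Of 35 lysosome and autophagy genes, 17 were higher and none lower (median log2 difference 0.16); ATP6V1A, a subunit of the proton pump, had 269, 273 and 278 CPM at 10 µM and 170, 170 and 163 CPM at 1 µM. Without the libraries at places 7 and 8 this list had 15 higher and 2 lower. Of 21 actin cytoskeleton genes, 10 were higher and 2 lower. TMSB4X, thymosin β, which binds actin monomers, had 140, 187 and 165 CPM at 10 µM and 62.7, 46.9 and 53.2 CPM at 1 µM (log2 difference 1.58), and vimentin (VIM) had 505, 451 and 427 CPM and 301, 315 and 290 CPM. Of 14 Hippo targets and factors, 7 were higher and none lower; WWTR1, which encodes the coactivator TAZ, had 156, 144 and 148 CPM at 10 µM and 85.1, 91.5 and 87.3 CPM at 1 µM. Intestinal genes were mixed: GPA33, a colon surface antigen, had 19.2, 22.0 and 23.3 CPM at 10 µM and 9.03, 7.59 and 7.53 CPM at 1 µM, and FABP2, a fatty acid-binding protein of enterocytes, had 1.49, 1.57 and 2.56 CPM and 5.16, 5.93 and 6.48 CPM. Of 10 colorectal epithelial markers 4 were higher and 1 lower, of 12 neuroendocrine genes 1 was higher and 2 lower, of 19 stem and progenitor genes 4 were higher and 6 lower, and neither of the 2 leukocyte markers tested was called.

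Stress and metabolic lists tended lower, beside shares over all genes tested of 20.4% lower and 15.8% higher. Several of the smaller counts below lie near these shares. Of 31 ATF4 and integrated stress response genes, 18 were lower and 4 higher; the transporter gene SLC7A5 had 245, 236 and 256 CPM at 10 µM and 336, 366 and 350 CPM at 1 µM, while DDIT4, an inhibitor of mTORC1, had 119, 120 and 114 CPM and 60.6, 60.9 and 62.5 CPM. Of 22 unfolded protein response genes 16 were lower and 1 higher, of 20 heat shock genes 12 were lower and 2 higher, and of 26 cholesterol synthesis genes 19 were lower and 1 higher. XBP1, a transcription factor of that response, had 179, 211 and 204 CPM at 10 µM and 287, 258 and 282 CPM at 1 µM, and SQLE, squalene epoxidase, had 145, 162 and 163 CPM and 225, 216 and 220 CPM. Hypoxia and glycolysis genes were split, 6 higher and 13 lower of 28, and NRF2 targets likewise, 5 higher and 6 lower of 16. Feedback genes of MAPK signalling had 1 higher and 4 lower of 16; ETV5 had 35.3, 31.8 and 37.1 CPM at 10 µM and 67.9, 68.7 and 71.0 CPM at 1 µM. Interferon-stimulated genes had 4 higher of 23 with a median log2 difference of 0.48, but with the term for library sets 1 was higher and the median was -0.20. No ribosomal protein gene was called (0 of 30). Of 13 mitochondrially encoded transcripts 1 was higher (median log2 difference 0.08), but with replicate 1 as the single 10 µM library 8 were (median 0.28). Immediate-early genes had 5 higher and 1 lower of 19, NF-kappaB targets 2 higher and 1 lower of 16, Notch genes 4 lower of 13, and ID genes and BMP targets 3 higher and 4 lower of 16. With replicate 1 as the single 10 µM library the immediate-early genes had 2 higher and 0 lower, MAPK feedback genes 2 and 2, p53 targets 2 and 4, Notch genes 1 and 2, and ID genes and BMP targets 3 and 1.

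The step with Helicon 4 was set beside the same step with Helicon 4-neg, in other libraries. Between 10 µM and 1 µM of Helicon 4-neg 2661 genes (20.1%) were called, 1329 higher and 1332 lower, but with the term for library sets 25 were higher and 71 lower, and without the libraries at places 7 and 8 1 was higher and 1 lower. Of the 6 Helicon 4-neg libraries, 3 were at places 7 and 8, 2 at 10 µM and 1 at 1 µM, so this last fit set 1 library at 10 µM against 2 at 1 µM. A test of the difference between the steps called 4398 genes (33.3%), 1964 in which the Helicon 4 step was the higher and 2434 in which it was the lower. The same test gave 1558 and 2054 genes with the term for library sets, and 1467 and 2998 after median centring of each library. In the Helicon 4-neg step itself, 6 of the 13 Wnt feedback genes were lower and 0 higher (median log2 difference -0.13). With the term for library sets 0 of the 13 were called. Of 26 cholesterol synthesis genes 15 were higher and 1 lower in that step, and 6 and 0 with the term. Over all genes tested, 10.1% were higher and 10.1% lower in the Helicon 4-neg step without the term. WIF1 averaged 4.50 CPM at 10 µM and 21.5 CPM at 1 µM of Helicon 4, and 41.6 CPM at 10 µM and 38.8 CPM at 1 µM of Helicon 4-neg, a difference between the steps of -2.13 on the log2 scale (adjusted p = 5.28e-10). For CA10 the Helicon 4-neg means were 1.14 CPM at 10 µM and 1.21 CPM at 1 µM, a difference between the steps of 3.31. NKD1 gave no detectable difference between the peptides' steps (0.01, adjusted p = 0.955); its Helicon 4-neg means were 39.2 CPM at 10 µM and 42.4 CPM at 1 µM. The largest differences between the steps among genes at a mean log2 level of at least 3 were in SPAG17, TP53INP2, HIST1H2AC, SEMA3A and MYLK on the higher side and in WIF1, KRT39, MEP1B, FARS2 and C9orf3 on the lower side.

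The step at 24 h was closer to the step at 48 h than to that at 6 h, in separate libraries. At 48 h, 4249 genes (31.5%) were called between 10 µM and 1 µM, 2200 higher (16.3%) and 2049 lower (15.2%). At 6 h 1114 (8.53%) were, 444 higher (3.4%) and 670 lower (5.13%). At 6 h, none of the libraries at 10 µM and 2 of the 3 at 1 µM were at places 7 and 8, whereas at 24 h 2 of the 3 at 10 µM and none at 1 µM were, and at 48 h neither group held one. With the term for library sets 224 were higher and 428 lower at 6 h, and with the 1 remaining library at 1 µM 109 and 272 were. Of the 2086 genes called higher at 24 h and tested at 48 h, 1077 were higher there and 56 lower, and of the 2691 called lower, 1219 were lower there and 43 higher. At 6 h, 163 of 2002 such genes were higher and 56 lower, and 352 of 2693 were lower and 92 higher. Across genes, which are not independent replicates, the Pearson r of the log2 differences at 24 h was 0.66 with 48 h (13134 genes) and 0.08 with 6 h (12919 genes). With the term for library sets in every fit these were 0.60 and 0.23, and of the genes called at 24 h and tested at 6 h, 105 of 1789 were higher and 30 lower, and 231 of 2516 were lower and 49 higher. APCDD1 and AXIN2 were already lower at 10 µM than at 1 µM at 6 h, with log2 differences of -1.40 and -1.53, while WIF1 had -0.48 at 6 h, -2.03 at 24 h and -1.63 at 48 h. CA10 was not called at 6 h (0.15, adjusted p = 0.564) and was higher at 10 µM at 24 and 48 h. NKD1 and DKK1, neither of which was called at 24 h, were lower at 10 µM than at 1 µM at 6 h, with log2 differences of -1.29 and -2.47. DKK1 had 0.410, 0.957 and 0.838 CPM at 10 µM at 6 h, and 8.65, 10.3 and 6.89 CPM at 1 µM, where replicate 3 is the library outside places 7 and 8. With the term for library sets the 6 h differences were -1.34 for NKD1 (adjusted p = 3.3e-12) and -2.21 for DKK1 (adjusted p = 6.93e-10). By 48 h NKD1 was higher at 10 µM than at 1 µM (log2 difference 0.25, limma adjusted p = 0.00815). With the term this was 0.28 (limma adjusted p = 0.00416). DKK1 was not called at 48 h (log2 difference -0.11, limma adjusted p = 0.69). The ATF4 list had 9 higher and 3 lower members at 48 h, against 4 higher and 18 lower at 24 h, and the heat shock list 10 higher and 4 lower, against 2 higher and 12 lower; the difference between times was not tested.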

How the data were processed

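Polyadenylated RNA of COLO320DM cells was sequenced from 63 libraries, in 21 groups of 3. The submitters' processing notes name the build GRCh38 and, with no order or role, edgeR 4.0.2, Subread 2.4.2, featureCounts, STAR 2.7.7a and Trimmomatic 0.39; the strand setting of the counting is not given in the sources used here. The deposited values are a signal, reads per 1e6 reads (CPM) on rescaled library sizes, for 13962 genes, and 100% of them were whole reads within 0.01 read once divided by the value of 1 read in their library, so read counts per library could be recovered. Gene length is the authors' other deposited column and was used only in an alternative.

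Values were tested as log2(CPM + 1) with limma 3.58.1 (trend) on the 21 libraries of a time, keeping genes at 0.5 CPM or more in at least 3 libraries, with Benjamini-Hochberg adjustment over all genes tested. Differences on this scale understate the change of low genes. Coordinates are from GENCODE 29 (GRCh38). No 2 of the 6 columns held identical values.

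The comparison, the gene lists and the alternatives were chosen with earlier results of these data known. The genes named are the 12 largest rises and falls whose mean log2 value was 3 or more and no overlap between groups, the 6 level genes per direction with the largest response at 3 µM, the genes that moved back, the 5 largest differences per direction between the peptides' steps, the Wnt feedback list with 6 further Wnt genes, and the 4 members of each list with the smallest p, of which some are named. COL1A2, the libraries' places and the alternatives built on them were added after the data were seen. Alternatives were another pseudocount, no filter, median centring, length and GC trends, the compared groups alone, one fit of all libraries, robust variance, the quasi-likelihood test of edgeR 4.0.16 on the recovered reads, a replicate block, each replicate left out, a term for library sets and leaving out places 7 and 8.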

Additional observations from a re-analysis of the deposited data

Results flagged for a closer look

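The dose step from 1 µM to 10 µM differed between the peptides at 24 h in 1964 genes in which the Helicon 4 step was the higher and in 2434 in which it was the lower, by the test of the difference itself. In 4 of the 56 genes named by rules other than the smallest p within a list, both steps were called and pointed in opposite directions. SPAG17 had a difference between the steps of 2.24 on the log2 scale: its means were 47.1 CPM at 10 µM and 14.4 CPM at 1 µM of Helicon 4, and 9.25 CPM at 10 µM and 14.5 CPM at 1 µM of Helicon 4-neg. FARS2 had -1.74, with means of 68.4 CPM at 10 µM and 196 CPM at 1 µM of Helicon 4, and 259 CPM at 10 µM and 220 CPM at 1 µM of Helicon 4-neg. KREMEN1 had 0.49, with 222 CPM and 189 CPM for Helicon 4 at 10 µM and 1 µM, and 170 CPM and 203 CPM for Helicon 4-neg at 10 µM and 1 µM. With the term for library sets, the Helicon 4-neg step of these 3 genes was no longer called (adjusted p = 0.114, 0.231 and 0.123).

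ABAT had a difference between the steps of 0.85, with means of 51.0 CPM at 10 µM and 39.0 CPM at 1 µM of Helicon 4, and 73.3 CPM at 10 µM and 102 CPM at 1 µM of Helicon 4-neg. Its Helicon 4-neg step stayed called with the term for library sets (log2 difference -0.39, adjusted p = 0.00775). The part of the library sets in these differences was not tested further.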

How the results depend on the processing

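The Helicon 4 step at 24 h kept its counts within 1.5 times under every alternative run, with 1407 to 2410 genes higher and 1798 to 2737 lower. When 1 replicate was left out they were 1698 to 2022 and 2261 to 2681. The lowest of these counts came from fitting the compared groups alone. Of the 56 genes named by rules other than the smallest p within a list, 48 kept their call in all their alternatives (up to 18 each). The others were CCND1, COL1A1, DKK1, ID3, MXD3, SPAG6, TCF7L2 and ZNRF3, and DKK1 reversed (-0.50 without the libraries at places 7 and 8). Genes named only for a small p within a list were not checked in this way. Leaving out places 7 and 8 keeps 1 library at 10 µM at 24 h (and 1 at 1 µM at 6 h). The cause of these changes was not tested.

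The Helicon 4-neg step (1329 higher, 1332 lower) gave 25 and 71 genes with the term for library sets, 1 and 1 without the libraries at places 7 and 8, 2162 and 815 after median centring, and 766 lower after removal of length trends; leaving out 1 replicate gave 371 to 855 higher and 506 to 923 lower. The step between 10 µM and 3 µM gave 138 and 142 with the term and 87 and 63 from the compared groups alone (200 to 380 and 216 to 452 without 1 replicate), that between 3 µM and 1 µM 636 and 946 from the compared groups alone. At 6 h the counts were 224 and 428 with the term and 109 and 272 without places 7 and 8, with 216 to 450 higher without 1 replicate. Between 1 µM and DMSO they were 706 to 1113 higher and 899 to 1437 lower without 1 replicate. Level responders were 10 to 26 of those higher at 3 µM and 21 to 64 of those lower without 1 replicate, and 18 of those lower from the compared groups alone. At 48 h median centring gave 1691 higher and 2743 lower, against 2200 and 2049.

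Same-numbered libraries did not deviate together (correlations of -0.49, -0.46 and -0.13 between 10 µM and 1 µM). They came from different library sets, so this check could not show whether the numbers pair cultures. With the replicate number as a block the counts were 2086 higher and 2719 lower. Precision rests on 3 libraries a group, and values near the worth of 1 read carry mainly counting error.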
